A study of Mus musculus with 12 samples.

Results

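Skin-derived precursors (SKPs) from wounded skin given vehicle were compared with SKPs from uninjured skin given vehicle, on 3 arrays in each group. The samples were chosen by their titles and make up 6 of the 12 arrays of the series. All came from CD57/Bl6 mice (the labels' spelling) aged 9 months, and per the series text the 3 arrays of a group are separate isolates. The other 6 arrays are of SKPs from wounded skin given trimebutine maleate or alprostadil, and they enter here through the shared estimate of the spread between arrays and the filter that decided which genes were tested. Cells grew as floating spheres in medium with EGF (20 ng/ml), B27 (2%) and FGF2 (40 ng/ml), and secondary spheres were used. The sources used here do not give the kind and age of the wound, the sex of the mice or the part of the body, so wounding and skin site cannot be told apart. The labels do not settle whether vehicle was given to the mice or to the spheres.

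SKPs are cells of the dermis that form spheres in medium with FGF2 and EGF, and they are related to the dermal papilla, the signalling centre at the base of the hair follicle. After wounding, dermal fibroblasts divide, migrate, lay down matrix and remodel it with secreted proteases, while they exchange signals with macrophages. Dermal fibroblasts also keep a record of where in the body they came from in their Hox genes, which sit in clusters named A to D.

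Levels are log2 values in which 1 unit is a doubling, and all differences are wound vehicle minus uninjured vehicle on that scale. Array medians lay between 6.61 and 6.74, so a gene near that level was close to the middle of all probe sets. Dermal fibroblast genes were high in both groups, with 16 of 17 above the median on all 6 arrays. Their mean level was 11.17 to 12.10 on the wound vehicle arrays and 11.90 to 12.22 on the uninjured vehicle arrays. Differences were below 0 for 16 of the 17, with a median of -0.46, and none passed an adjusted p of 0.05 in limma. All 3 wound vehicle arrays lay below all 3 uninjured ones in 5 (29.4%, against 10% of all tested genes). Of the SKP markers, Sox2 was at most 5.61 and was not tested, and Nes (nestin) read 7.01, 6.80 and 7.09 in wound vehicle and 6.75, 6.99 and 6.60 in uninjured vehicle. One array in each group stood apart from the other two of its group. Wound vehicle replicate 3 differed by more than 1 unit from replicates 1 and 2 in 655 and 792 genes, while replicates 1 and 2 differed from each other by that much in 89. Uninjured vehicle replicate 3 differed in 578 and 336 genes from replicates 1 and 2, which differed from each other in 103.

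In limma, 6 of 13153 tested genes passed an adjusted p of 0.05 (0.0456% of genes tested), 5 lower (0.038%) and 1 higher (0.0076%) in wound vehicle. In RNA from whole spheres, fewer cells of a type and less RNA per cell cannot be told apart. In a limma fit of the 6 vehicle arrays alone, 0 genes passed, with 1679 at an unadjusted p under 0.05, and the 6 genes had adjusted p-values of 0.0637 to 0.119. The count also depended on single arrays. It was 30 without uninjured vehicle replicate 3, with 24 lower and 6 higher and 5 of the 6 genes among them. Without wound vehicle replicate 3 it was 5, all lower, and 2 of them, Mmp1b and Itgb8, were among the 6. Leaving out wound vehicle replicate 1, uninjured vehicle replicate 1, uninjured vehicle replicate 2 or wound trimebutine replicate 2 gave 0 genes in limma, with 1075, 964, 958 and 1486 genes at an unadjusted p under 0.05 in that order. Removing wound vehicle replicate 2 left 1 gene. Among the drug arrays, removing replicate 3 of the trimebutine group left 3 genes, and removing replicates 1, 2 and 3 of the alprostadil group, one at a time, gave 1, 12 and 22. Before adjustment, 1709 genes (13%) had a p under 0.05, 1084 of them lower and 625 higher. The 3 arrays of one group did not overlap the 3 of the other in 2370 genes (18%). Deposited values were already normalised between arrays, and on them 48.6% of tested genes lay below 0, against 54.4% after cyclic loess and 60% after median centring.

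Mmp1b, which encodes a member of the interstitial collagenase family, fell in wound vehicle. It read 6.07, 6.36 and 5.63 on the wound vehicle arrays and 7.83, 7.73 and 7.84 on the uninjured vehicle arrays, a difference of -1.78 ± 0.18 (SE, n = 3 per group; limma adjusted p = 0.0228). The wound vehicle arrays lay below their own array medians and the uninjured vehicle arrays above theirs. Itgb8, the integrin beta chain that with the alpha-v chain activates latent TGF-beta, also fell. Its values were 7.36, 7.23 and 8.17 in wound vehicle and 9.38, 9.32 and 9.44 in uninjured vehicle (-1.79 ± 0.24, limma adjusted p = 0.0475). Wound vehicle replicate 3 stood highest of its group, still more than 1 unit below the lowest uninjured array, and the difference without that array was -2.08. Without uninjured vehicle replicate 3 its adjusted p was 0.0503.

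C1ql1, a secreted relative of the complement protein C1q that is known as a synaptic ligand in the brain, had 6.58, 6.62 and 6.56 in wound vehicle and 7.91, 7.70 and 7.43 in uninjured vehicle, and fell (-1.09 ± 0.14, limma adjusted p = 0.0338). All 3 wound vehicle arrays lay within a narrow band near the array median. Art3, a surface protein of the ADP-ribosyltransferase family, read 7.88, 7.59 and 7.64 in wound vehicle and 9.08, 9.02 and 9.48 in uninjured vehicle (-1.49 ± 0.19, limma adjusted p = 0.0338). Gm16685, a predicted gene with no role assigned here, read 7.81, 7.93 and 7.74 in wound vehicle and 10.15, 10.12 and 9.68 in uninjured vehicle. At -2.15 ± 0.29 (4.45-fold, limma adjusted p = 0.0475) it fell the most of the 5. The only gene that both passed and rose was Nova1, an RNA-binding regulator of splicing known from neurons. It read 8.45, 8.55 and 8.57 in wound vehicle and 6.90, 7.34 and 7.42 in uninjured vehicle (1.30 ± 0.16, limma adjusted p = 0.0338), or 2.46-fold. Without wound vehicle replicate 3 the differences of these 4 genes were -1.08, -1.46, -2.11 and 1.28 in the order given, with adjusted p-values of 0.0567, 0.0567, 0.0647 and 0.0567, so none of them passed.

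**Figure D1:**
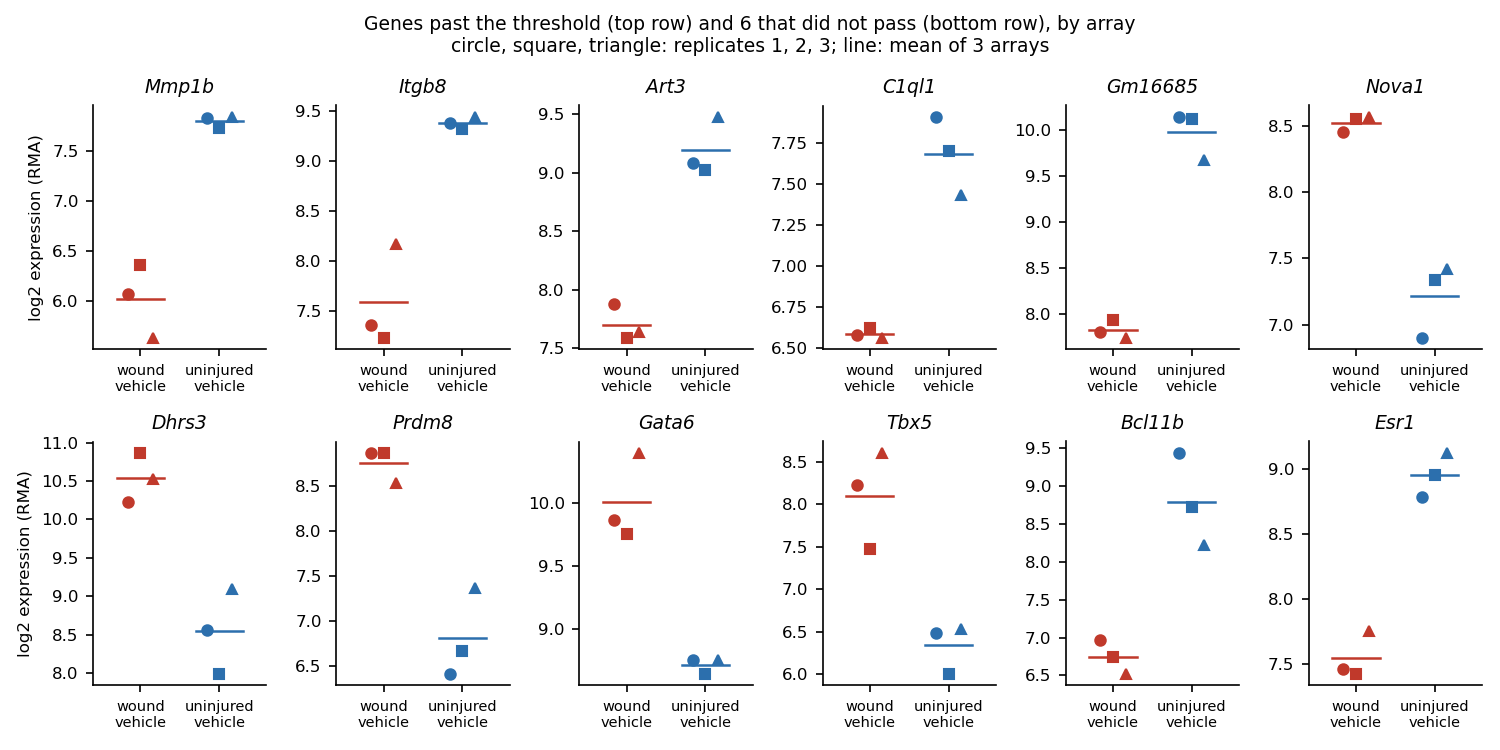
Log2 expression on each of the 3 wound vehicle arrays (red) and 3 uninjured vehicle arrays (blue), with a line at each group's mean. The top row holds the 6 genes that passed and the bottom row 6 that did not. The vertical scale differs between panels and does not start at 0. No panel has overlapping groups, and wound vehicle replicate 3 (triangle) stands apart from the other 2 for Itgb8.

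Across all tested genes the larger differences lay on the lower side. A difference beyond 1 unit with no overlap between the groups was found for 204 genes lower in wound vehicle (1.55%) and for 40 higher (0.304%). The 1st and 99th percentiles of all differences were -1.46 and 0.84. The 204 genes had median deviations from the uninjured mean of -1.57, -1.69 and -1.08 on wound vehicle arrays 1, 2 and 3, so replicate 3 lay nearest to the uninjured level. For the 40 genes these medians were 1.5, 1.34 and 1.26.

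**Figure D2:**
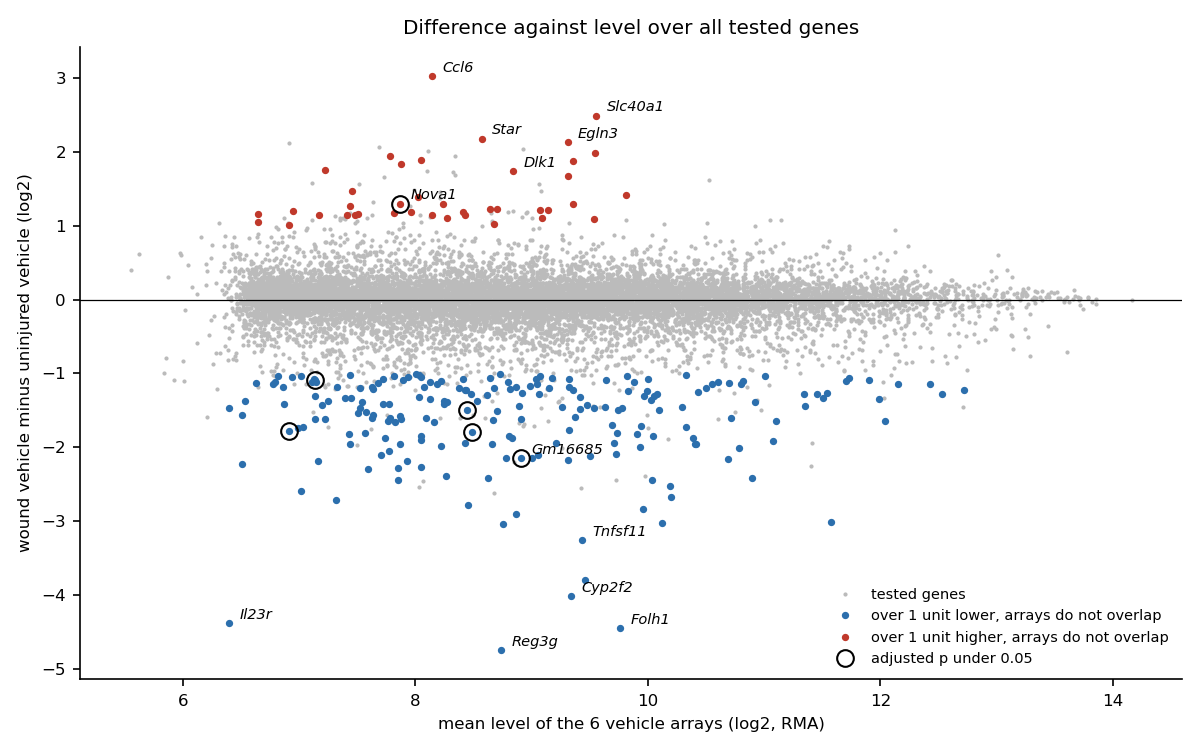
Wound vehicle minus uninjured vehicle (log2) against the mean level of the 6 vehicle arrays for the 13153 tested genes. Coloured points are the 204 lower and 40 higher genes beyond 1 unit whose arrays do not overlap, and rings are the 6 genes that passed. The lower points reach -4.75 (Reg3g) and the higher ones 3.03 (Ccl6), and neither of these 2 genes passed.

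None of the genes with the largest non-overlapping differences passed. Reg3g, an antibacterial lectin of epithelia, read 5.14, 5.35 and 8.59 in wound vehicle and 11.09, 11.42 and 10.83 in uninjured vehicle (-4.75 ± 1.15, limma adjusted p = 0.187). Folh1, a surface peptidase that removes glutamate, read 6.29, 7.16 and 9.18 in wound vehicle and 12.70, 11.49 and 11.78 in uninjured vehicle. In both genes wound vehicle replicate 3 lay between the other wound vehicle arrays and the uninjured ones. Il23r, the receptor chain for interleukin 23, showed another pattern, with 4.29, 4.23 and 4.09 in wound vehicle and 10.09, 9.19 and 6.49 in uninjured vehicle (-4.38 ± 0.97). Here the wound vehicle arrays were alike and all far below the array median, and the spread lay in the uninjured group. Its adjusted p was 0.153, and 0.0433 without uninjured vehicle replicate 3. Cyp2f2, a cytochrome P450, Ctla2a, a cysteine protease inhibitor, and Tnfsf11, the ligand RANKL of osteoclast formation, differed by -4.02, -3.80 and -3.26. Tnfrsf11b (osteoprotegerin), the soluble decoy for RANKL, was lower on the same arrays, at 7.97, 7.95 and 7.60 in wound vehicle and 9.09, 9.50 and 9.09 in uninjured vehicle (-1.38 ± 0.22, limma adjusted p = 0.0671).

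Dhrs3, Prdm8 and Star were higher on every wound vehicle array without passing. Dhrs3, which reduces retinaldehyde to retinol, read 10.23, 10.87 and 10.52 in wound vehicle and 8.56, 7.99 and 9.10 in uninjured vehicle (1.99 ± 0.28, limma adjusted p = 0.0528). Cyp26b1, which breaks down retinoic acid, lay the other way, at 7.21, 7.04 and 7.11 in wound vehicle and 7.72, 7.37 and 7.68 in uninjured vehicle. Among the 15 tested retinoid genes, 3 were higher and 1 was lower with no overlap (20% and 6.67%, against 8.01% and 10% of all tested genes). Prdm8, a zinc-finger repressor, read 8.87, 8.86 and 8.53 in wound vehicle and 6.41, 6.66 and 7.36 in uninjured vehicle (1.94 ± 0.29, limma adjusted p = 0.0604). Star, the carrier that brings cholesterol into mitochondria for steroid synthesis, read 10, 9 and 9.97 in wound vehicle and 7.03, 6.84 and 8.55 in uninjured vehicle. Dhrs3, Prdm8 and Star each had an adjusted p of 0.0203 without uninjured vehicle replicate 3, the array of that group on which each was highest.

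Among genes lower on every wound vehicle array, Bcl11b, a zinc-finger factor of T cells and skin, read 6.97, 6.75 and 6.52 in wound vehicle and 9.44, 8.72 and 8.22 in uninjured vehicle (-2.05 ± 0.31, limma adjusted p = 0.0604). Esr1, the oestrogen receptor alpha, read 7.46, 7.42 and 7.75 in wound vehicle and 8.79, 8.96 and 9.13 in uninjured vehicle (-1.42 ± 0.23, limma adjusted p = 0.0671). The gap between the groups was wider than the spread inside either for both genes. Thrb, a thyroid hormone receptor, differed by -0.67 ± 0.12, and Nr2f2, an orphan nuclear receptor, by 0.65 ± 0.12 in the other direction. Nrn1 (neuritin), known for promoting neurite growth, read 8.54, 7.95 and 9.10 in wound vehicle and 11.65, 11.62 and 10.86 in uninjured vehicle (-2.84 ± 0.51, limma adjusted p = 0.109). Lrrtm3, a synaptic adhesion protein, differed by -1.05 ± 0.17 and Csmd3, a large membrane protein of neurons, by -1.42 ± 0.23, each with a limma adjusted p of 0.0671.

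Hox genes divided by cluster. Of 21 tested, none passed, 7 were lower on all wound vehicle arrays and 6 were higher on all of them, or 33.3% and 28.6%, where 10% of all tested genes were lower without overlap and 8.01% higher. The 7 lower genes were Hoxa4 to Hoxa7 and Hoxc8 to Hoxc10, and the 6 higher ones Hoxb2 to Hoxb7. Hoxc9 read 6.68, 6.80 and 6.98 in wound vehicle and 7.90, 7.80 and 7.72 in uninjured vehicle (-0.98 ± 0.14, limma adjusted p = 0.0539). Hoxc10 read 6.44, 6.31 and 6.4 in wound vehicle and 7.67, 7.36 and 6.99 in uninjured vehicle, with a limma adjusted p of 0.0733. These 2 genes had the largest differences of the family. Hoxa6 read 7.89, 7.98 and 7.47 in wound vehicle and 8.54, 8.50 and 8.29 in uninjured vehicle. Hoxb3 read 7.85, 7.87 and 8.02 in wound vehicle and 7.24, 7.22 and 7.44 in uninjured vehicle (0.62 ± 0.14, limma adjusted p = 0.168). Hoxb5 had the largest difference of the B cluster, 0.84 ± 0.28. For Hoxa4 the groups nearly met, since the highest wound vehicle array and the lowest uninjured array both rounded to 6.98. Genes of the D cluster overlapped between the groups, as did Hoxa13, Hoxb9, Hoxc4, Hoxc6 and Hoxc13.

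**Figure D3:**
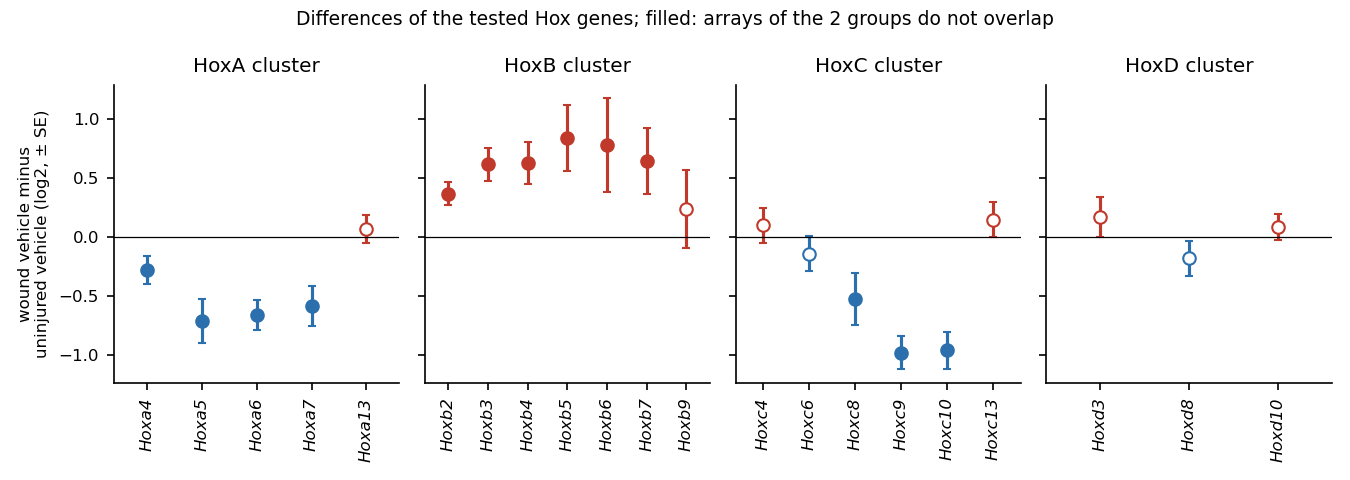
Wound vehicle minus uninjured vehicle (log2) with its SE for the 21 tested Hox genes by cluster, filled where the arrays of the groups do not overlap. The filled points are 4 lower genes in cluster A, 6 higher genes in cluster B and 3 lower genes in cluster C.

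For Hoxc8, wound vehicle replicate 3, at 10.11, lay closer to the uninjured range of 10.16 to 10.36 than to the other wound vehicle arrays. Of 32 other tested factors that mark body position, 5 were lower and 5 higher without overlap (15.6% each). Among all tested genes these shares were 10% and 8.01%, and the median difference of the 32 was -0.03. After cyclic loess 5 were lower and 3 higher, and after median centring 7 were lower and 3 higher. Tbx5, the T-box factor of the forelimb and heart, read 8.23, 7.47 and 8.61 in wound vehicle and 6.48, 6 and 6.53 in uninjured vehicle (1.76 ± 0.29, limma adjusted p = 0.0752). Uninjured vehicle lay below the array median for Tbx5, and all wound vehicle arrays lay above it. Gata6, a zinc-finger factor of mesoderm and endoderm, read 9.86, 9.75 and 10.4 in wound vehicle and 8.75, 8.64 and 8.75 in uninjured vehicle (1.29 ± 0.20, limma adjusted p = 0.0647). Gata2, a factor best known in blood precursors, read 8.19, 8.12 and 8.12 in wound vehicle and 7.47, 7.38 and 7.69 in uninjured vehicle. On the lower side, Zic1, a zinc-finger factor of the dorsal neural tube and dorsal dermis, read 9.50, 9.67 and 8.89 in wound vehicle and 10.61, 10.61 and 10.92 in uninjured vehicle (-1.36 ± 0.28, limma adjusted p = 0.118). En1, which marks a lineage of scar-forming fibroblasts in mouse back skin, read 7.07, 7.12 and 7.35 in wound vehicle and 8.22, 8.28 and 7.61 in uninjured vehicle (-0.86 ± 0.21, limma adjusted p = 0.187).

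Complement and coagulation genes were mostly lower. Of 24 tested, 21 lay below 0, and 12 were lower with no overlap (50%, against 10% of all tested genes), with 1 higher. The list counts relatives of C1q as well, and the only member to pass was one of these, C1ql1. The median difference was -0.64, against 0.01 over all tested genes. C7, a protein of the membrane attack complex, read 5.2, 5.23 and 5.74 in wound vehicle and 7.95, 7.79 and 7.11 in uninjured vehicle (-2.23 ± 0.42, limma adjusted p = 0.113). Cfb, factor B of the alternative pathway, read 8.17, 8.13 and 8.01 in wound vehicle and 10.14, 10.06 and 8.96 in uninjured vehicle. C1ra, a protease of the first component, read 7.89, 8.17 and 8.58 in wound vehicle and 9.25, 9.27 and 9.16 in uninjured vehicle (-1.01 ± 0.20, limma adjusted p = 0.118). For all 3 genes the closest approach was between a replicate 3 and the other group. Serping1, the inhibitor of C1 proteases, was also lower, at 11.99, 11.95 and 12.48 in wound vehicle and 13.13, 13.13 and 12.75 in uninjured vehicle. The C1q-related secreted proteins C1qtnf3 and C1qtnf7 differed by -2.78 ± 0.89 and -1.88 ± 0.46.

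Immediate early genes, which cells switch on within minutes of a stimulus, showed 9 of 22 lower without overlap (40.9%) and 0 higher, although their median difference was only -0.17. None passed. Btg2, an inhibitor of cell division, read 8.92, 8.39 and 8.27 in wound vehicle and 10.26, 9.63 and 10.07 in uninjured vehicle (-1.46 ± 0.31, limma adjusted p = 0.132). Zfp36, which speeds the decay of cytokine mRNAs, read 9.27, 9.28 and 9.25 in wound vehicle and 10.39, 10.06 and 10.04 in uninjured vehicle. Fos, a subunit of the transcription factor AP-1, read 7.5, 8.12 and 7.89 in wound vehicle and 9.14, 8.64 and 8.37 in uninjured vehicle (-0.88 ± 0.35, limma adjusted p = 0.347). Its partners Jun and Junb differed by -0.69 ± 0.29 and -0.31 ± 0.13. Genes of the same list that lay higher overlapped between the groups, Atf3 and Klf4 among them. The ERK list holds feedback inhibitors and targets of ERK signalling, the pathway that FGF2 and EGF feed. Of its 17 tested genes, 6 were lower without overlap (35.3%) and 1 was higher (5.88%). Their median difference was nevertheless 0.18, with 7 of the 17 below 0. Dusp1, a phosphatase of MAP kinases, read 9.87, 9.44 and 9.06 in wound vehicle and 11.04, 10.38 and 10.20 in uninjured vehicle. Spry2 read 9.03, 9.18 and 9.14 in wound vehicle and 10.08, 9.64 and 9.59 in uninjured vehicle (-0.65 ± 0.15, limma adjusted p = 0.168). Etv4, a target of the pathway, was the higher one, at 7.57, 7.28 and 7.52 in wound vehicle and 7.25, 6.96 and 7.25 in uninjured vehicle.

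Matrix proteases and their inhibitors had 10 of 43 lower without overlap (23.3%) and 4 higher (9.3%), with a median of -0.36 and Mmp1b alone passing. Mmp1a, the neighbour and close relative of Mmp1b, read 10.42, 10.22 and 8.80 in wound vehicle and 11.32, 10.96 and 10.90 in uninjured vehicle (-1.25 ± 0.34, limma adjusted p = 0.204). As near copies, the pair can share hybridisation, so their separate values are uncertain. Wound vehicle replicate 3 was the lowest array for both. Mmp3 (stromelysin 1) was near the top of the scale in both groups, at 13.33, 13.24 and 13.24 in wound vehicle and 13.57, 13.66 and 13.64 in uninjured vehicle. Mmp8, the neutrophil collagenase, read 8.41, 7.55 and 9.86 in wound vehicle and 12.12, 12.11 and 10.67 in uninjured vehicle (-3.03 ± 0.88, limma adjusted p = 0.218). Mmp16, a membrane-bound protease, read 7.32, 7.22 and 7.33 in wound vehicle and 9.57, 8.69 and 8.43 in uninjured vehicle (-1.61 ± 0.34, limma adjusted p = 0.128). In the other direction, Adam19, a membrane sheddase, read 10.67, 10.67 and 10.75 in wound vehicle and 10.24, 10.13 and 10.13 in uninjured vehicle (0.53 ± 0.08, limma adjusted p = 0.0671). Mmp12, the macrophage elastase, read 10.19, 10.20 and 8.84 in wound vehicle and 8.49, 8.39 and 8.73 in uninjured vehicle.

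The promoters of Mmp1b, Mmp1a and Mmp3 are shown with the AP-1 motif TGANTCA in capitals. They are 3 members of the same gene cluster on chromosome 9 that were all lower. Each is 300 bases of RefSeq sequence (GRCm38.p6) around the annotated start, at chr9:7387977-7388276 on the minus strand for Mmp1b, chr9:7463891-7464190 on the plus strand for Mmp1a and chr9:7445572-7445871 on the plus strand for Mmp3.
Mmp1b: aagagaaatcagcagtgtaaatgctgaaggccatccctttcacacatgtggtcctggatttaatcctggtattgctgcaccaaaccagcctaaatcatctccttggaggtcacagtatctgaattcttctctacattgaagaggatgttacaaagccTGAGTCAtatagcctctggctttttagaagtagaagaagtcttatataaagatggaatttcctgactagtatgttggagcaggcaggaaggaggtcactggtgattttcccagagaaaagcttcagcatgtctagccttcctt
Mmp1a: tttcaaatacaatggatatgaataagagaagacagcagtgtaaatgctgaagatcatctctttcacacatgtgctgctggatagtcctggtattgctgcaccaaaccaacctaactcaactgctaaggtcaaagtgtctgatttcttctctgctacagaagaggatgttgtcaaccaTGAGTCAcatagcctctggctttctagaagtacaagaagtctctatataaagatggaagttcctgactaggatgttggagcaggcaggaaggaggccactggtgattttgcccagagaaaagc
Mmp3: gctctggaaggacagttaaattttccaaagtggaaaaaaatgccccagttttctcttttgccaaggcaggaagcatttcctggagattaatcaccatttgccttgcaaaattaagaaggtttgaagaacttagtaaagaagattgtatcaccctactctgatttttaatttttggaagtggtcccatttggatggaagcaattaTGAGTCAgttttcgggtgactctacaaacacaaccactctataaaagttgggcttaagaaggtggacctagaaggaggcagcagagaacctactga
Each window held 1 match, TGAGTCA. The Mmp1a and Mmp1b windows were 89.1% identical over 274 aligned bases. The motif reads the same on both strands, and 7.81% of all 32851 promoters of this length held it. By gene, it was in 8 of 28 tested protease genes with a promoter entry (28.6%), against 666 of 10250 tested genes (6.5%). The 28 include genes that were higher as well as genes that were lower. Elsewhere in the cluster, the window of Mmp8, which was lower, held no match. Of 2 entries for Mmp12, which was higher, 1 held a match, and the windows of Mmp10 and Mmp13 held 1 each. These are matches of letters and no binding was measured, and the part of AP-1 in these differences was not tested.

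Interferon response genes had the largest share of non-overlapping members of any list of 10 or more genes, 22 of 30 lower (73.3%) and 0 higher, with no member passing. The differences were small, with a median of -0.45. Isg15, a ubiquitin-like modifier, read 6.82, 6.61 and 6.70 in wound vehicle and 7.21, 7.34 and 7.16 in uninjured vehicle (-0.53 ± 0.15, limma adjusted p = 0.218). Bst2 (tetherin), which holds budding viruses at the cell surface, read 9.15, 9.16 and 9.36 in wound vehicle and 10.12, 9.92 and 9.65 in uninjured vehicle. In both genes uninjured replicate 3 was the lowest of its group, and for Bst2 wound vehicle replicate 3 was the highest of its group. Their promoters are shown with matches to the interferon-stimulated response element, searched as the half-site GAAA given 2 times with 2 bases of any kind between, on either strand, in capitals (RefSeq, GRCm38.p6, 300 bases, chr4:156200769-156201068 and chr8:71537423-71537722, both on the minus strand).
Isg15: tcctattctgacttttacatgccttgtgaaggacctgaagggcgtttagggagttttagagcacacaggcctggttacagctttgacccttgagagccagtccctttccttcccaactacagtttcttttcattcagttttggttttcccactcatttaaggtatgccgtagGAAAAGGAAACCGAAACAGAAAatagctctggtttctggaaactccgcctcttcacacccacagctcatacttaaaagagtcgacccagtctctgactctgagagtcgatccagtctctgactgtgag
Bst2: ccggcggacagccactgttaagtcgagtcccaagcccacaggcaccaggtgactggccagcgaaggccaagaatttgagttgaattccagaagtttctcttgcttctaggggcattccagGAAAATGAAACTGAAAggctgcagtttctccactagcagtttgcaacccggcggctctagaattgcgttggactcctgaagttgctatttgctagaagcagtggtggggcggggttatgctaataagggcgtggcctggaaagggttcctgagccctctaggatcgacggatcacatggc
The element had 3 overlapping matches in the Isg15 window and 2 in that of Bst2. It was present in 10 of 23 tested interferon genes with a promoter entry (43.5%), 369 of 10250 tested genes (3.6%) and 3.44% of all promoters of this length. The window of Psmb9, which was also lower on every wound vehicle array, held no match. As for AP-1, letters were matched and no binding was measured, and the part of the element in these differences was not tested.

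**Figure D4:**
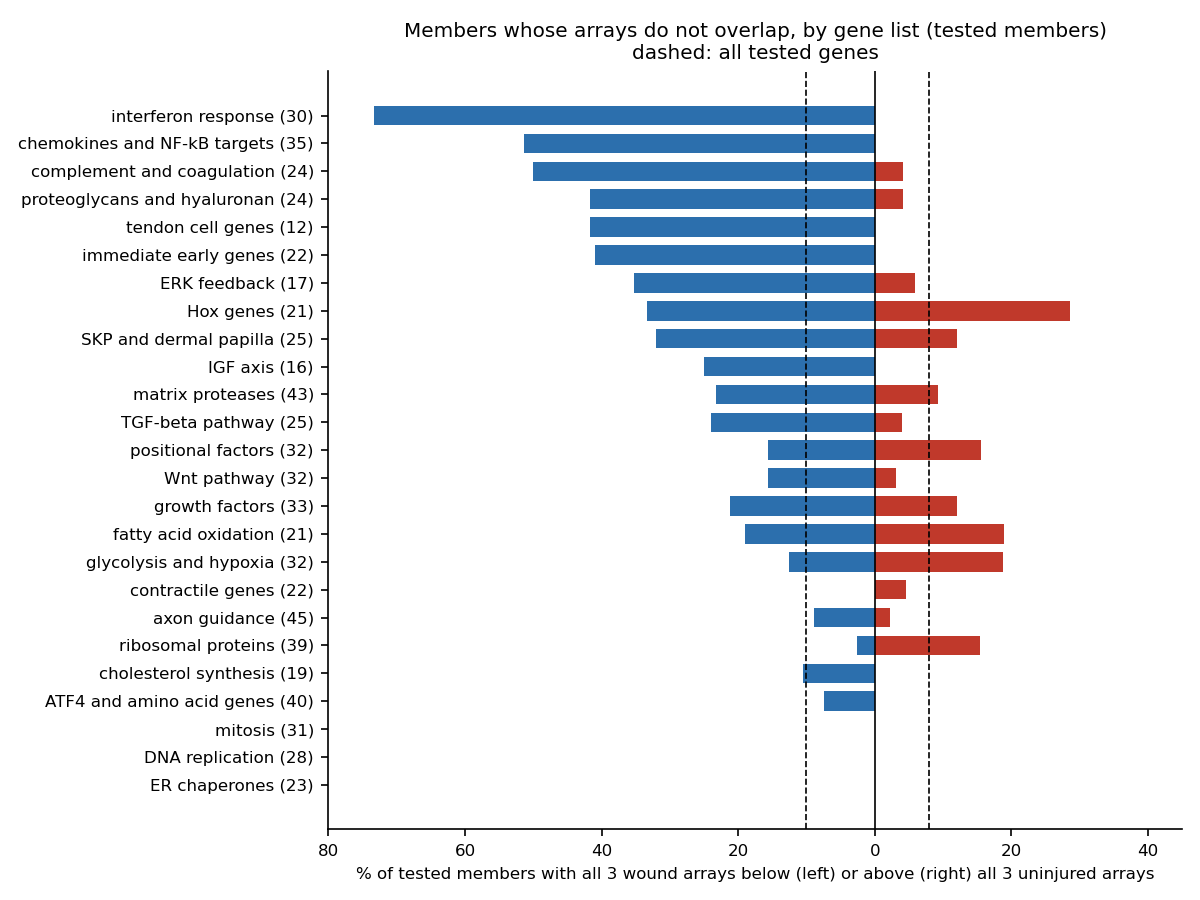
Share of each gene list's tested members whose 3 wound vehicle arrays all lay below (blue, left) or above (red, right) all 3 uninjured vehicle arrays, with the number of tested members in parentheses. Dashed lines mark the shares among all tested genes, 10% lower and 8.01% higher. The interferon list reaches 73.3% on the left, the Hox list extends to both sides, and mitosis, DNA replication and ER chaperone lists have no bar.

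Outside the collagens, matrix genes of several kinds were lower. Of 24 proteoglycan and hyaluronan genes, 10 were lower with no overlap (41.7%) and 1 was higher, and none passed. Sdc4, a cell surface heparan sulphate proteoglycan, read 9.96, 9.65 and 10.33 in wound vehicle and 11.19, 11.35 and 10.82 in uninjured vehicle (-1.14 ± 0.27, limma adjusted p = 0.186). Cemip, which degrades hyaluronan, read 6.60, 6.09 and 6.98 in wound vehicle and 8.03, 7.49 and 7.47 in uninjured vehicle. Tnfaip6, which modifies hyaluronan during inflammation, had its lowest value, 9.16, on wound vehicle replicate 3, with 10.33 and 9.96 on the others of the group and 10.71, 10.89 and 10.92 in uninjured vehicle. Dcn (decorin), a small proteoglycan that binds collagen, read 13.67 to 13.69 in wound vehicle and 13.79 to 13.85 in uninjured vehicle. Smoc2, a calcium-binding matrix protein, read 7.23, 6.88 and 7.60 in wound vehicle and 10.48, 10.72 and 9.62 in uninjured vehicle (-3.04 ± 0.61, limma adjusted p = 0.118). Fbln5, which organises elastic fibres, read 8.54, 8.38 and 9.10 in wound vehicle and 10.35, 10.47 and 9.65 in uninjured vehicle. Ltbp4, which holds latent TGF-beta in the matrix, lay the other way, at 8.18, 8.39 and 8.06 in wound vehicle and 7.22, 7.49 and 7.55 in uninjured vehicle (0.79 ± 0.34, limma adjusted p = 0.365), while its relative Ltbp2 differed by -1.20 ± 0.48. Tendon cell genes had 5 of 12 lower with no overlap (41.7%). The tendon factor Mkx had the smallest p of the list in limma. It read 7.15, 7.70 and 8.95 in wound vehicle and 10.79, 9.98 and 9.44 in uninjured vehicle (-2.14 ± 0.52, limma adjusted p = 0.187). Thbs4 and Col12a1 differed by more, at -2.52 ± 0.82 and -2.16 ± 0.72. Tnc and Egr1 were also lower without overlap, at -1.22 ± 0.45 and -0.84 ± 0.26. Of the 12, 10 lay below 0 and 2 above, but another tendon factor, Scx, had a mean of 8.28 in both groups. Col14a1 had means of 8.86 in wound vehicle and 8.42 in uninjured vehicle, with overlapping arrays. Tnmd, of the same list, was not tested.

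Genes of the hair follicle's dermal papilla and of its signals had lower members. In the SKP and dermal papilla list, 8 of 25 were lower with no overlap (32%) and 3 were higher (12%). Rspo3, a secreted enhancer of Wnt signalling, read 8.19, 7.89 and 8.58 in wound vehicle and 10.68, 10.66 and 9.85 in uninjured vehicle (-2.17 ± 0.43, limma adjusted p = 0.118). Its relative Rspo2 differed by -1.02 ± 0.24. Their receptor Lgr5 read 5.59, 5.38 and 6.19 in wound vehicle and 7.84, 7.65 and 6.37 in uninjured vehicle. Trps1, a zinc-finger factor of hair follicles, read 8.98, 8.99 and 8.96 in wound vehicle and 9.56, 9.86 and 9.45 in uninjured vehicle (-0.65 ± 0.12, limma adjusted p = 0.113). Prom1 (CD133) read 7.15, 7 and 6.9 in wound vehicle and 8.23, 7.85 and 7.89 in uninjured vehicle. Hey1, a target of Notch signalling, and the receptor gene Notch2 were higher on every wound vehicle array, with Notch2 at 11.32, 11.44 and 11.08 in wound vehicle and 10.62, 10.64 and 10.65 in uninjured vehicle (0.64 ± 0.14, limma adjusted p = 0.149). The Notch ligand gene Dll1 lay the other way, at 6.88, 7.04 and 7.33 in wound vehicle and 8.23, 8.03 and 7.39 in uninjured vehicle, as did Rfng (-0.36 ± 0.15). Of 14 tested Notch genes, 3 were higher and 2 lower without overlap (21.4% and 14.3%, against 8.01% and 10% of all tested genes).

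Growth factor genes went both ways, with 7 of 33 lower and 4 higher without overlap (21.2% and 12.1%), none passing. Fgf7, a fibroblast product that acts on keratinocytes, read 8.76, 8.91 and 9.33 in wound vehicle and 11.06, 10.71 and 10.68 in uninjured vehicle (-1.82 ± 0.44, limma adjusted p = 0.186). Pdgfd, a ligand of PDGF receptors, read 7.53, 7.84 and 8.46 in wound vehicle and 9.57, 9.57 and 9.22 in uninjured vehicle. Nrg1, a ligand of ERBB receptors, differed by -1.43 ± 0.39 and Vegfc, a factor for lymphatic vessels, by -1.04 ± 0.28. Vegfa, the main factor for blood vessels, lay the other way, at 12.29, 12.15 and 11.85 in wound vehicle and 11.07, 11.25 and 11.77 in uninjured vehicle (0.73 ± 0.21, limma adjusted p = 0.209), so its 2 replicates 3 nearly met. Btc (betacellulin), a ligand of the EGF receptor, read 7.79, 7.31 and 7.72 in wound vehicle and 6.85, 6.69 and 6.93 in uninjured vehicle. In the IGF list 4 of 16 were lower without overlap (25%, against 10% of all tested genes) and 0 higher. Igfbp5, an IGF-binding protein, read 8.23, 7.57 and 7.75 in wound vehicle and 10.37, 9.21 and 8.87 in uninjured vehicle (-1.63 ± 0.44, limma adjusted p = 0.204). Pappa, the protease that cleaves IGF-binding proteins, differed by -0.70 ± 0.21. In the TGF-beta list, where Itgb8 passed, 6 of 25 were lower (24%) and 1 was higher (4%) without overlap. The co-receptor Eng read 11.19, 11.18 and 11.25 in wound vehicle and 12.40, 12.26 and 11.83 in uninjured vehicle. Axon guidance genes lay near the background, with 4 of 45 lower (8.89%) and 1 higher. The largest was Epha3, an ephrin receptor, at 9.30, 9.12 and 9.97 in wound vehicle and 11.39, 11.55 and 10.63 in uninjured vehicle.

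Among 32 glycolysis and hypoxia genes 6 were higher (18.8%) and 4 lower (12.5%), and after median centring 3 were higher and 6 lower. Egln3, an oxygen-sensing prolyl hydroxylase that hypoxia induces, read 11.14, 9.50 and 10.49 in wound vehicle and 7.33, 9.09 and 8.31 in uninjured vehicle (2.13 ± 0.72, limma adjusted p = 0.282). Sod2, the superoxide dismutase of mitochondria, read 11.86, 11.59 and 12.14 in wound vehicle and 13.11, 13.09 and 12.80 in uninjured vehicle, and Sod3, which is secreted, differed by -1.94 ± 0.53. Cytosolic Sod1 differed by 0.16 ± 0.10. Nqo1 was higher on every wound vehicle array (0.79 ± 0.31). Of 22 tested oxidative stress and metallothionein genes, 5 were lower and 2 higher without overlap (22.7% and 9.09%, against 10% and 8.01% of all tested genes). Their median difference was -0.03. Pde3b, a phosphodiesterase that breaks down cAMP, read 9.20, 9.13 and 9.42 in wound vehicle and 7.97, 8.39 and 7.74 in uninjured vehicle (1.22 ± 0.26, limma adjusted p = 0.135), and Pde4b, another, differed by -0.63 ± 0.21. Of 20 imprinted genes, 3 were lower and 3 higher without overlap (15% each, against 10% and 8.01% of all tested genes). Cdkn1c, an inhibitor of cell division, read 8.64, 9.46 and 8.36 in wound vehicle and 7.44, 7.91 and 7.80 in uninjured vehicle (1.10 ± 0.24, limma adjusted p = 0.139). Dlk1, a Notch-like inhibitor of adipocyte formation, read 9.59, 9.23 and 10.30 in wound vehicle and 7.67, 8.13 and 8.12 in uninjured vehicle, and Peg3 differed by -1.59 ± 0.61. Slc40a1, the iron exporter ferroportin, had one of the largest differences upward, 2.49 ± 0.57, at 10.76, 11.02 and 10.61 in wound vehicle and 7.37, 8.09 and 9.46 in uninjured vehicle (limma adjusted p = 0.168).

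Other lists had means that differed between the groups while their arrays overlapped in nearly every member. All 31 mitosis genes lay below 0, with a median of -0.67, yet 0 of 31 had non-overlapping arrays. Their scores (the mean of members after each gene is centred on the 6 arrays) were -0.74, -1.02 and 0.71 in wound vehicle and 0.98, 0.40 and -0.32 in uninjured vehicle. Wound vehicle replicate 3 was thus above 2 of the 3 uninjured arrays. Top2a, the topoisomerase of dividing cells, read 6.79, 6.21 and 8.69 in wound vehicle and 9.26, 8.46 and 7.47 in uninjured vehicle (-1.17 ± 0.75, limma adjusted p = 0.53). ER chaperone genes were the mirror image, with 23 of 23 above 0, a median of 0.39, and 0 of 23 non-overlapping. Hspa5 (BiP), the main chaperone of the endoplasmic reticulum, read 12.74, 12.63 and 11.34 in wound vehicle and 11.07, 11.25 and 12.66 in uninjured vehicle. Derl3, which helps export misfolded proteins from the endoplasmic reticulum, read 10.02, 9.79 and 6.99 in wound vehicle and 6.69, 6.61 and 9.17 in uninjured vehicle (1.45 ± 1.04, limma adjusted p = 0.57). In both genes wound vehicle replicates 1 and 2 were at the level of uninjured replicate 3, and wound vehicle replicate 3 at that of uninjured replicates 1 and 2.

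Scores of ER chaperones were 0.57, 0.58 and -0.49 in wound vehicle and -0.57, -0.58 and 0.48 in uninjured vehicle. Scores of ATF4 and amino acid supply genes were also above 0 on wound vehicle replicates 1 and 2 and uninjured replicate 3 and below 0 on the other 3 arrays, at 0.44, 0.33 and -0.33 in wound vehicle and -0.50, -0.28 and 0.34 in uninjured vehicle. Ddit3 (CHOP) read 12.16, 12.10 and 10.52 in wound vehicle and 9.49, 10.28 and 11.80 in uninjured vehicle. DNA replication genes followed mitosis, with 25 of 28 below 0 and 0 non-overlapping. All 19 cholesterol synthesis genes lay below 0, 2 of them without overlap (10.5%). Hmgcs1, an early enzyme of that pathway, read 9.80, 9.28 and 10.92 in wound vehicle and 11.60, 11.81 and 10.29 in uninjured vehicle (-1.23 ± 0.59, limma adjusted p = 0.417). Leaving out replicate 3 of wound vehicle moved the median of the mitosis list to -1.22 and that of the ER chaperone list to 0.72, and leaving out replicate 3 of uninjured vehicle gave -1.02 and 0.69. The part that these growth and stress states of single arrays play in the other differences was not tested.

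**Figure D5:**
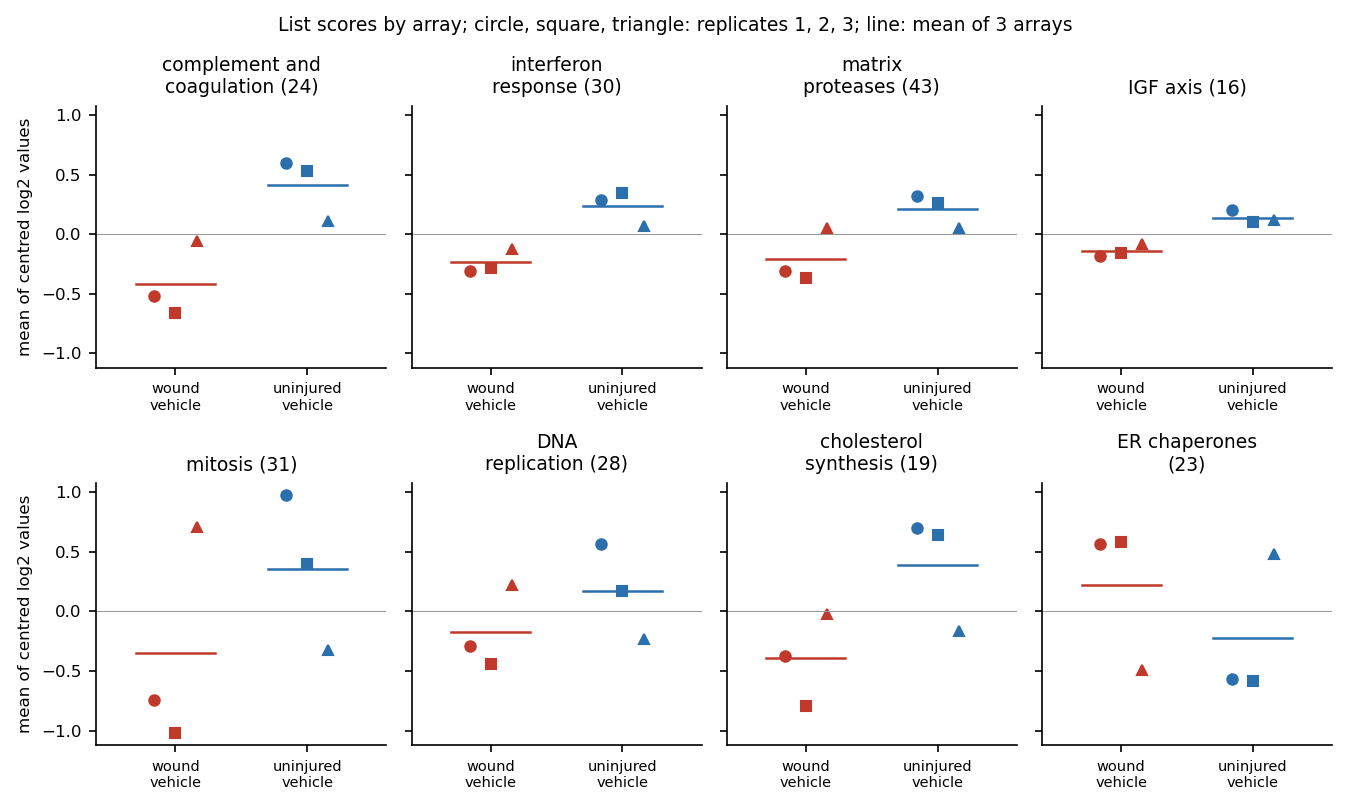
List scores, the mean of each list's tested members after each gene is centred on the 6 arrays, for wound vehicle (red) and uninjured vehicle (blue), with a line at the group mean. Complement, interferon and IGF scores do not overlap between the groups, and protease scores nearly meet at 0.05. In the lower row the groups overlap, with wound vehicle replicate 3 (triangle) above uninjured replicate 3 for mitosis, DNA replication and cholesterol synthesis and below it for ER chaperones.

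Markers of other cell types were also measured. The endothelial list had a mean level of 6.91 to 7.02 in wound vehicle and 6.77 to 7.04 in uninjured vehicle, and the keratinocyte list 6.33 to 6.37 in wound vehicle and 6.29 to 6.45 in uninjured vehicle. Of 6 tested endothelial genes 3 lay below 0 and 3 above, with a median of -0.04. Without overlap, 1 was lower and 1 higher (16.7% each, against 10% and 8.01% of all tested genes). Cdh5 (VE-cadherin of endothelium) read 9.98, 9.98 and 7.37 in wound vehicle and 7.37, 7.52 and 6.41 in uninjured vehicle (2.01 ± 0.72, limma adjusted p = 0.302). Flt1 and Eng, of the same list, lay the other way, at -1.39 ± 0.53 and -0.96 ± 0.29. Of 20 macrophage and leukocyte genes 13 were tested, 4 of them higher (30.8%) and 1 lower (7.69%) without overlap, and none passed. Of the 13, 11 lay above 0, with a median of 0.64. The mean level of the list was 7.03 to 7.59 in wound vehicle and 6.70 to 7.09 in uninjured vehicle. Cd68, a lysosomal protein of macrophages, read 8.90, 9.52 and 9.16 in wound vehicle and 8.61, 7.96 and 7.95 in uninjured vehicle (1.02 ± 0.90, limma adjusted p = 0.649). Tyrobp and Fcer1g, signalling adaptors of myeloid cells, were likewise higher on each wound vehicle array, at most 8.52 and 8.61 on replicate 2. Cd53, a surface protein of leukocytes, read 11.12, 11.04 and 10.9 in wound vehicle and 10.33, 10.31 and 10.5 in uninjured vehicle. The lower member was Cd14, a receptor for bacterial lipopolysaccharide, at 6.58, 6.78 and 6.62 in wound vehicle and 7.85, 7.23 and 7.84 in uninjured vehicle. Csf1r read 6.75, 6.92 and 6.76 in wound vehicle and 6.77, 6.59 and 6.63 in uninjured vehicle. Ptprc (CD45), Adgre1, Itgam and Mrc1 were not tested. Ptprc read 5.62, 5.67 and 5.03 in wound vehicle and 5.21, 4.90 and 5.02 in uninjured vehicle. Adgre1 read 5.99, 7.12 and 5.26 in wound vehicle and 5.19, 5.28 and 5.20 in uninjured vehicle. Itgam read 6.42, 6.84 and 5.99 in wound vehicle and 5.94, 5.94 and 5.93 in uninjured vehicle. Mrc1 had a mean of 5.93 in both groups. Ccl6, a chemokine of myeloid cells, read 9.63, 10.34 and 9.02 in wound vehicle and 8.55, 7.06 and 4.27 in uninjured vehicle (3.03 ± 1.40, limma adjusted p = 0.396). The part of macrophages in the values of Ccl6, Mmp12, Slc40a1 and Cd68 was not tested. The wide SE of Cd68 includes the spread of an array outside the comparison, wound alprostadil replicate 1. Cd68 read 12.61 there, against 8.46 and 8.44 on the other alprostadil arrays, and the list had a mean of 10.4. For Ccl6 and Slc40a1 the uninjured vehicle arrays themselves were spread, with standard deviations of 2.17 and 1.06.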

How the data were processed

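RNA was hybridised to Affymetrix Mouse Gene 2.0 ST arrays. The deposited values are log2 expression per probe set, which the authors obtained by RMA in the oligo package, per the submitters' processing notes; the sources used here state no versions. Of 41345 probe sets, 23521 carry 1 gene symbol and were used, and 1814 carry several and 16010 none. The brightest probe set stood for each of 22180 symbols. A gene was tested if it exceeded the array median on 3 or more of the 12 arrays (13153 genes). A linear model of all 4 groups was fitted with limma 3.58.1 (R 4.3.3) and had 8 residual degrees of freedom, and two-sided p-values were adjusted by Benjamini-Hochberg over the tested genes at 0.05. The number of arrays limits the precision. Named genes are those that passed, the 20 smallest p-values each way among genes that are not predicted, the 10 largest non-overlapping differences each way, and up to 5 members of each of 54 gene lists by p. Further members of those lists were named after their values were seen. The comparison and lists were chosen with earlier results of these data known. Lists are described by counts and medians with no test. List symbols were matched to 1327 of 1435 genes, by current symbol or RefSeq synonym. Scripts were tested on simulated data. Alternatives were other filters, scalings, variance models, thresholds, a replicate block and leaving out each array. Python 3.11.15 and matplotlib 3.10.9 drew the figures, and the promoter pair was aligned with Biopython 1.88.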

Additional observations from a re-analysis of the deposited data

How the results depend on the processing

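The count of 6 genes changed by more than 1.5 times under several settings. It was 2 with a replicate block, where the 6 genes had adjusted p-values of 0.0621 to 0.0722 and so none of them passed, 0 with only the 6 vehicle arrays in the fit (1679 genes at an unadjusted p under 0.05 in limma), 3 with the filter on mean level, 1 after median centring, 21 at an adjusted p of 0.1 and 4997 with array weights. It stayed within that range with no filter (4), the mean of probe sets (6), cyclic loess (4) and a trended, robust variance (4). Leaving out each of the 12 arrays in turn gave 0 to 30 genes, and the cause of these shifts was not tested. The block pairs arrays by replicate number, and the labels do not say whether equal numbers share anything else. Deviations of same-numbered arrays correlated at -0.36, -0.38 and -0.64, while wound vehicle replicates 1 and 2 went with uninjured replicate 3 (0.49 and 0.54) and wound vehicle replicate 3 with uninjured replicates 1 and 2 (0.47 and 0.44). Of 12 omissions, Mmp1b passed in 8, Nova1 and Art3 in 5, C1ql1 and Gm16685 in 4 and Itgb8 in 3. Without overlap, all tested genes were lower in 12.6% and higher in 4.26% after median centring, and in 10.9% and 6.35% after cyclic loess.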

Other observations

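Without uninjured vehicle replicate 3, genes outside the main calls also passed. Scara5, a scavenger receptor, differed by -1.69, Tnxb, a matrix protein of the tenascin family, by -2.53, and Runx3, a transcription factor, by -1.03, with limma adjusted p-values of 0.0203, 0.0352 and 0.0313. Eya4, a transcriptional coactivator, lay the other way, at 1.62 with an adjusted p of 0.0313. With all arrays these 4 genes differed by -1.31, -2.10, -0.80 and 1.17 and did not pass, at adjusted p-values of 0.17, 0.118, 0.186 and 0.218. These genes were chosen after their values were seen.

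Ribosomal protein genes had small positive differences, with 32 of 39 above 0 and a median of 0.09, and after median centring 26 of 39 were above 0 with a median of 0.04. Contractile genes lay below 0 in 18 of 22, with a median of -0.14, and 0 of them were lower without overlap. Oxidative phosphorylation genes were close to the middle, with 22 of 43 below 0 and a median of -0.02. None of the members of these lists passed in limma.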
